A study of Mus musculus with 8 samples.

Results

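This account describes 61 of the 22361 genes measured in mouse liver, those that stood clearly higher after the antisense oligonucleotide SPC3833 than after saline. They were chosen by their measured values in this same comparison. A gene entered if the mean of its 4 SPC3833 arrays exceeded the mean of its 4 saline arrays by at least 0.8 on the log2 scale and if its lowest SPC3833 value lay above its highest saline value. Saa1, Saa2 and Saa3, which are 3 genes of the serum amyloid A family, were left out by the same rule. The differences given below therefore describe the chosen genes and are not evidence that they rose, and no p-value is given for any of them. Which of them a fit over all genes called is stated below. Those calls rest on the same values and are no evidence either.

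An antisense oligonucleotide is a short synthetic nucleic acid that pairs with a complementary RNA, and designs with a DNA core direct the enzyme RNase H to cut that RNA. After injection into the blood such molecules reach the liver in large part, where hepatocytes, Kupffer cells and sinusoidal endothelial cells can take them up. Serum amyloid A proteins, which were set apart here, are acute phase proteins that hepatocytes secrete when inflammatory cytokines reach the liver.

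All 8 mice were female C57BL/6 animals, written C57BL/6J in the growth protocol, with 1 liver array each. SPC3833 was given intravenously to 4 mice at 5 mg/kg on 3 consecutive days, and the other 4 received saline. The labels used here give neither the age of the mice nor the target of SPC3833, and no other oligonucleotide was included as a control. The sampling time reads day 4 in the study design and day 3 in the treatment protocol. Because whole liver was measured, a higher value cannot be told apart between more RNA per cell and more cells of a type that holds the RNA.

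The table pairs none of its Ensembl gene IDs with a name, and the reference table used here matched 0 of the 22361 IDs. The 61 genes could for that reason not be named, and what they do was not analysed here. Markers of hepatocytes and of other liver cells could not be looked up either, so the labelled tissue was not checked against them. The first and the second gene are given by their IDs, and the others by their rank, from 1 for the largest difference of group means to 61 for the smallest. The mean over all genes lay between 5.77 and 5.80 on 7 arrays and at 5.88 on SPC3833 array 2.

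The 61 genes were 0.273% of those measured. Their differences ran from 0.80 to 1.80 on the log2 scale with a median of 0.94, against a median of 0.03 over all 22361 genes. In linear terms they were 1.74-fold to 3.49-fold higher with SPC3833, with a median of 1.91-fold. A difference of 1 or more was found for 22 of them, and the other 39 lay below it. The distance between the lowest SPC3833 value and the highest saline value was more variable, from 0.02 to 0.99 with a median of 0.38. It exceeded 0.5 for 18 genes and was under 0.1 for 7, so these 7 were only just separate.

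**Figure D1:**
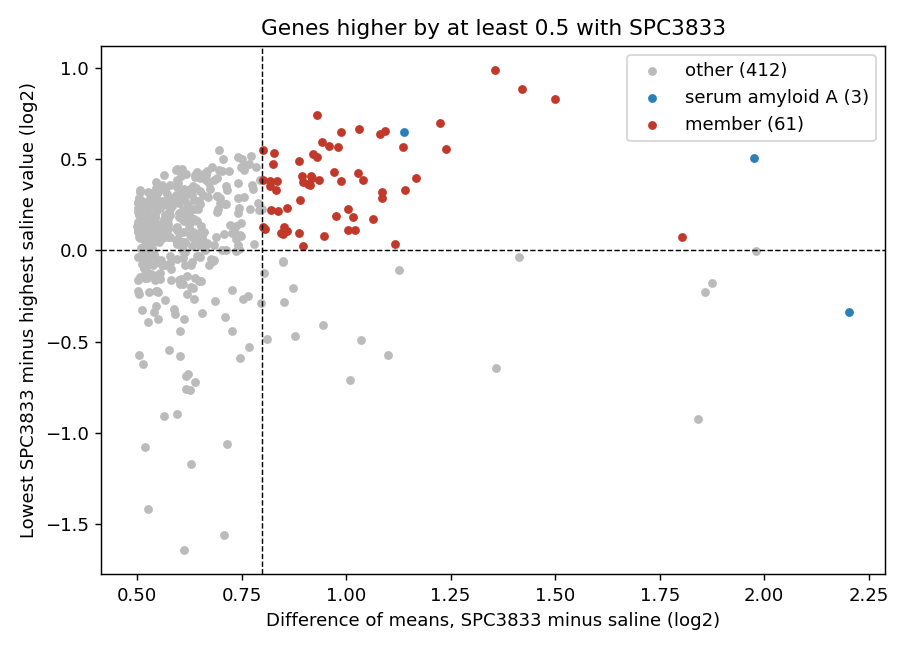
Genes whose mean was at least 0.5 higher with SPC3833: the x axis gives the difference of group means and the y axis the lowest SPC3833 value minus the highest saline value, both on the log2 scale. The 61 genes described here (red) fill the upper right field, where the difference is at least 0.8 and the groups do not overlap, and the 3 serum amyloid A genes are blue.

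Without any condition on size, 1641 genes (7.34%) had every SPC3833 value above every saline value, and without the condition on overlap, 82 genes (0.367%) reached the difference of 0.8. Both counts include serum amyloid A genes, and the 82 hold all 3 that the rule leaves out. Across all genes, limma at a Benjamini-Hochberg adjusted p under 0.05 called 911 of 22361 changed (4.07%), and 521 of these were higher (2.33%) and 390 lower. Other scalings, a stricter threshold and the omission of some single arrays turned this balance. Quantile normalization called 454 genes higher against 612 lower, centring each array on its median 276 against 487, and centring on the 75th percentile 439 against 531. On the values as deposited, an adjusted p under 0.01 gave 126 against 170. Leaving out SPC3833 array 2 gave 418 against 549, saline array 1 240 against 272, and saline array 2 218 against 249. Without any other single array, more genes were called higher than lower. Of the 61 genes, 56 were called higher on the values as deposited, a share that follows from the way the genes were chosen. At adjusted p under 0.01 the count was 33, and at under 0.1 it was 60. The 5 that were not called at under 0.05, ranks 19, 29, 40, 49 and 58, had differences of 0.81 to 1.02. Falls of the same size were more numerous: 101 genes lay at least 0.8 lower with groups that did not overlap.

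The edge of the group was narrow. Ranks 59, 60 and 61 had differences of 0.802, 0.801 and 0.80. The nearest 3 genes below the minimum, with groups that did not overlap, had differences of 0.799, 0.795 and 0.791. On the other side, 18 genes besides Saa1, Saa2 and Saa3 reached 0.8 but had overlapping groups. The largest of these differed by 1.98, with saline values up to 9.024 and SPC3833 values from 9.019.

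The gene of rank 1 was ENSMUSG00000091028. Its log2 expression was 9.05, 7.23, 9.27 and 7.93 on saline arrays 1 to 4 and 10.60, 10.20, 9.34 and 10.54 on SPC3833 arrays 1 to 4. Saline mice 1 and 3 stood well above saline mice 2 and 4, and SPC3833 array 3 exceeded the highest saline array by only 0.07. The group means were 8.37 ± 0.96 with saline and 10.17 ± 0.58 with SPC3833 (SD, n = 4 each), which is 3.49-fold higher. It thus had the largest difference of the 61, and its saline SD was also their largest.

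Rank 2, ENSMUSG00000075602, was tighter. Its values were 8.93, 9.14, 9.63 and 9.17 with saline and 10.46, 10.88, 10.57 and 10.98 with SPC3833. The groups were 0.83 apart, and the means of 9.22 ± 0.29 and 10.72 ± 0.25 (SD, n = 4 each) differed by 2.83-fold. With saline it was already brighter than most genes (percentile 95.5).

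Rank 3 was one of the few genes that stood lowest, among SPC3833 mice, on array 4. It read 7.16, 7.47, 6.96 and 7.64 with saline and 8.67, 8.87, 8.85 and 8.52 with SPC3833. The 4 treated mice lay within 0.35 of each other and all were at least 0.88 above saline. Its means were 7.31 ± 0.31 and 8.73 ± 0.16 (SD, n = 4 each), 2.68-fold apart.

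Rank 4 had the widest separation of the 61 genes. Its saline values of 3.58, 3.71, 3.62 and 3.61 were nearly the same in all 4 mice, and SPC3833 gave 4.70, 4.88, 4.71 and 5.65. The lowest treated mouse was 0.99 above the highest saline mouse, and array 4 stood above the other 3 treated mice. The means were 3.63 ± 0.06 and 4.99 ± 0.45 (SD, n = 4 each), 2.56-fold apart, at a level that is low for these arrays (percentile 13.0 in saline).

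Rank 5 was the dimmest of all 61 (percentile 3.89 in saline). It read 1.82, 2.17, 2.90 and 2.66 with saline and 3.67, 3.45, 3.65 and 3.74 with SPC3833. Here the saline mice were spread widely and the treated mice hardly, with SDs of 0.48 and 0.12 (n = 4 each). These values lie near the low end of the arrays, where the lowest value of all was 0.88. How far background signal adds to this spread and difference was not tested.

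Rank 6 read 5.89, 6.17, 6.69 and 6.37 with saline and 7.39, 7.61, 7.40 and 7.62 with SPC3833. The treated mice again differed little, with an SD of 0.13 against 0.33 in saline (n = 4 each), and the means were 2.34-fold apart.

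From rank 7 onwards 1 treated mouse often stood above the rest. Rank 7 read 6.81, 7.05, 7.41 and 7.08 with saline and 8.18, 8.19, 7.81 and 8.85 with SPC3833. Rank 8 read 5.22, 5.39, 5.60 and 6.04, then 6.46, 6.56, 6.37 and 7.43. In both genes array 4 was the highest of the treated arrays and array 3 the lowest.

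The same order was found in rank 9, with 5.75, 5.96, 5.73 and 6.00 in saline and 6.93, 6.88, 6.56 and 7.60 with SPC3833. Rank 11 read 5.69, 5.79, 5.91 and 5.91, then 6.78, 6.76, 6.56 and 7.57. Rank 12 read 7.22, 7.59, 7.82 and 7.90, then 8.70, 8.62, 8.22 and 9.33. These 3 genes differed in brightness but placed the 4 treated mice in 1 order, with arrays 4, 1, 2 and 3 from high to low.

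Rank 10 differed from them in that treated array 1 barely left the saline range. It read 6.13, 7.28, 6.74 and 7.29 with saline and 7.32, 8.16, 8.02 and 8.41 with SPC3833, so the groups were only 0.03 apart.

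**Figure D2:**
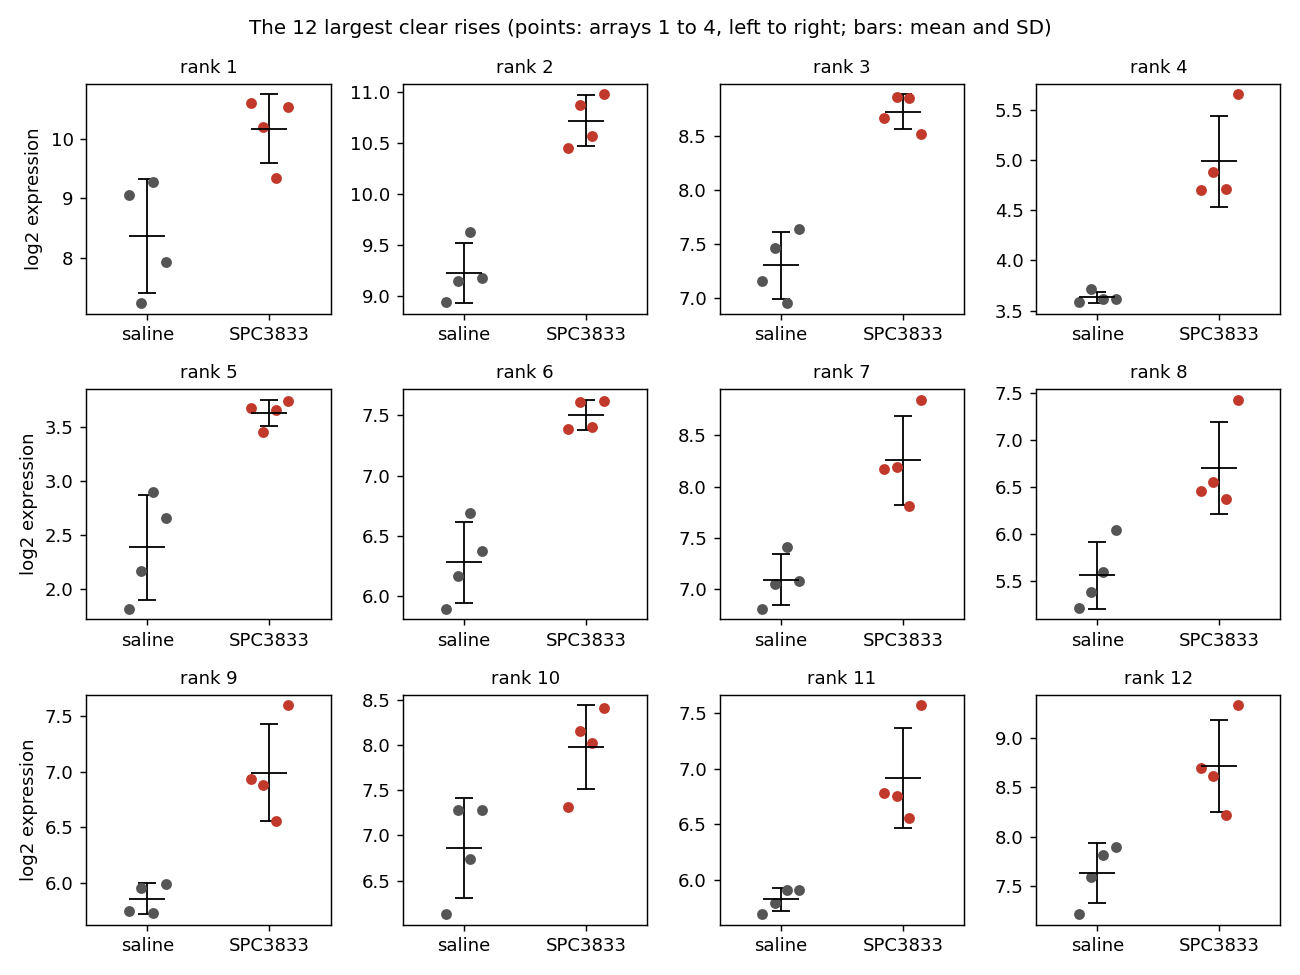
Log2 expression of the 12 genes with the largest differences, 1 panel per gene and each with its own y axis; points are arrays 1 to 4 from left to right within a group, and bars give the mean and SD of 4 arrays. Every SPC3833 point lies above every saline point, by 0.03 in rank 10 and by 0.99 in rank 4.

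The remaining 49 genes had differences of 0.80 to 1.09. Their brightness spanned much of the scale of the arrays. In saline the level of the 61 genes ran from 2.39 to 10.64 with a median of 6.37, against a median of 5.68 over all genes. The brightest 25% of all genes by saline level held 25 of the 61 and the next 25% held 17. The 25% below the median held 15 and the dimmest 25% only 4. The brightest of the 61, rank 30, read 10.83, 10.80, 10.26 and 10.67 with saline and 11.42, 11.86, 11.62 and 11.42 with SPC3833.

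The 4 treated mice did not share the rises evenly. SPC3833 array 4 held the highest treated value for 45 of the 61 genes, arrays 1 and 2 for 7 each and array 3 for 2. Array 3 held the lowest treated value for 38. Over all genes array 4 was the highest treated array for 18.0% and the lowest for 38.4%. A high value on array 4 helped a gene to enter the 61, so these shares are not like for like. Array 4 stood farthest in the direction of change for 59.7% of the 283 rises of 0.5 to under 0.8 without overlap. For the 101 falls of 0.8 or more without overlap the share was 41.6%. Relative to the saline mean of each gene, the median rise was 0.92 on array 1, 0.93 on array 2, 0.71 on array 3 and 1.29 on array 4.

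**Figure D3:**
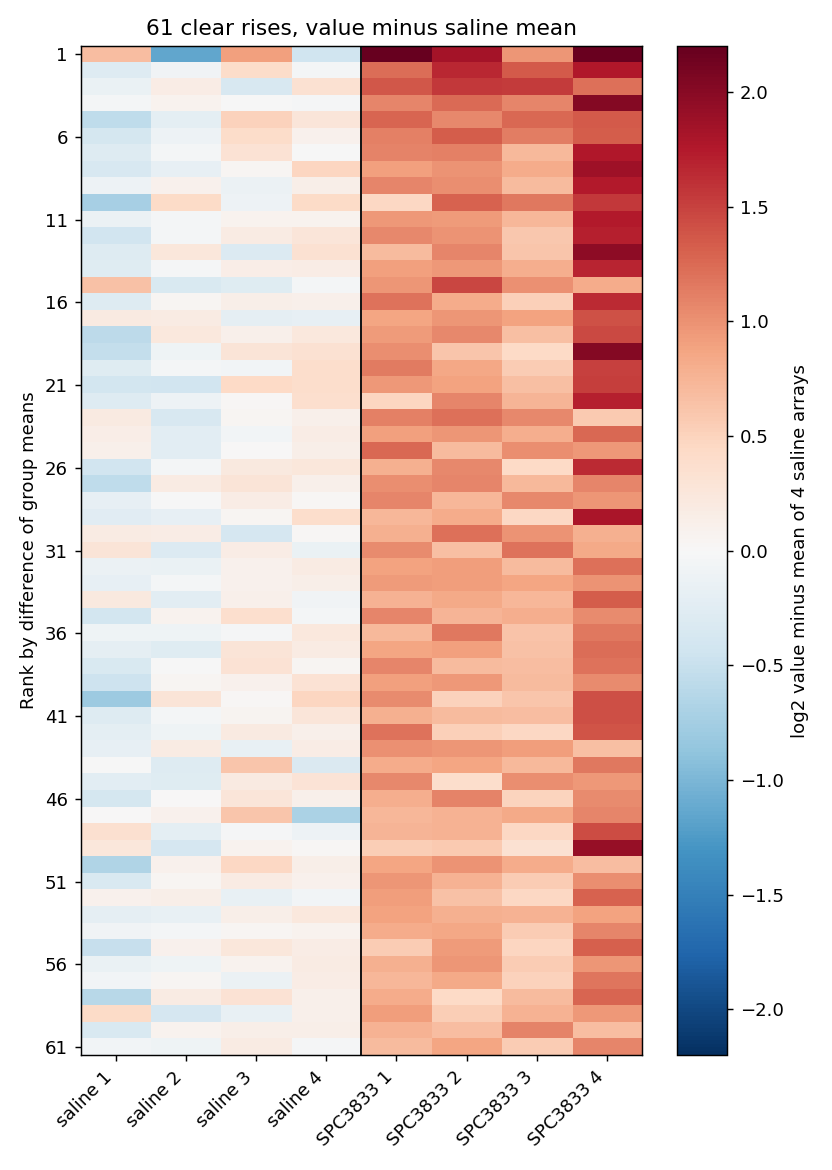
Log2 value minus the mean of the 4 saline arrays for the 61 genes (y axis, by rank) on the 8 arrays (x axis); red is higher and blue lower. All SPC3833 cells are red, with the deepest colour on array 4 for 45 genes and the palest on array 3 for 38.

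Against its own group mean, array 4 deviated by a median of 0.29 over the 61 genes, and array 3 by -0.25. For 8556 other genes of like saline level, between 5.56 and 7.69, not chosen by their rise, the same deviations were -0.03 and -0.02. The saline mice also had an order. Saline array 1 was the lowest saline array for 37 of the 61 genes and deviated by a median of -0.21, whereas saline arrays 3 and 4 deviated by 0.11 and 0.12. Over all genes saline array 1 was lowest for 26.6%. A low value on saline array 1 lowered the saline mean and so helped a gene to enter the 61. These shares are therefore not like for like either. Spread within the groups was wide for these genes. Their median SD was 0.27 between saline mice and 0.28 between treated mice, against 0.13 and 0.15 over all genes, and 57 and 55 of the 61 exceeded these values. For the 283 rises of 0.5 to under 0.8 without overlap the median SDs were 0.15 and 0.20. For the 101 falls of 0.8 or more without overlap they were 0.15 and 0.23. The 61 genes were chosen by these same values, so all genes are not a like-for-like baseline for their spread.

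**Figure D4:**
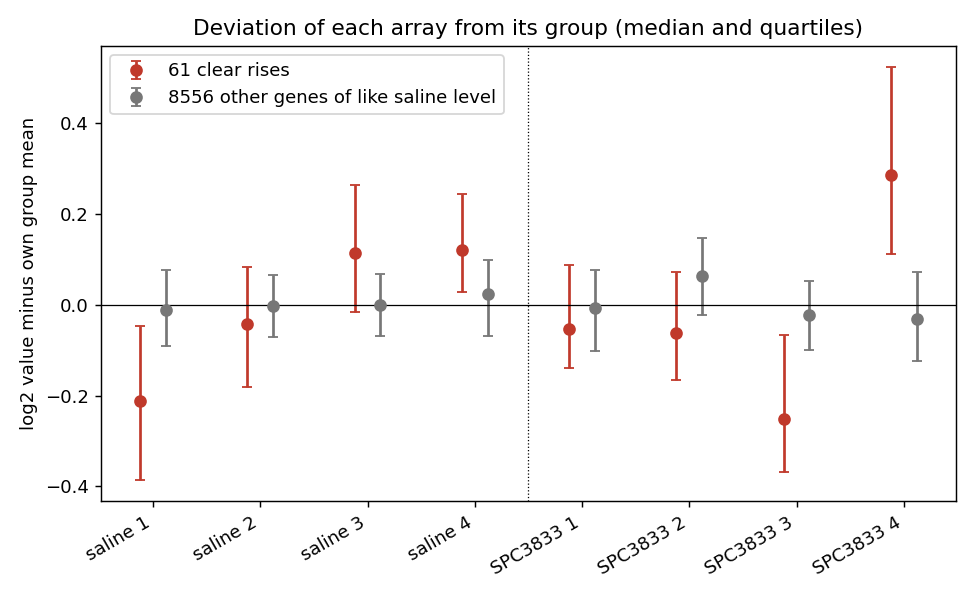
Deviation of each array from the mean of its own group on the log2 scale, as median and quartiles, for the 61 genes (red) and for 8556 other genes of like saline level (grey). The red medians run from -0.21 to 0.12 over the saline arrays and from -0.25 to 0.29 over the SPC3833 arrays, while the grey medians stay between -0.03 and 0.06.

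Most but not all of the genes shared this order of mice. The deviations of each gene on the 8 arrays were set against the mean deviations of the other 60 genes. Pearson's r, over 8 arrays that share both groups and are centred within them, had a median of 0.74 and exceeded 0.5 for 44 genes and 0.8 for 24. Among all genes outside the 61, 13.6% exceeded 0.5 and 3.16% exceeded 0.8. For 8 of the 61 genes, ranks 3, 15, 23, 25, 30, 31, 43 and 60, r was below 0. The 61 genes were chosen by these same values and varied more within the groups, so the other genes are not a like-for-like baseline. These correlations describe the 8 arrays and were not tested.

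The genes with r below 0 were found from rank 3 to rank 60. Array 4 was the lowest treated array for 6 genes, ranks 3, 15, 23, 30, 43 and 50, of which rank 50 had an r of 0.28. Rank 23 read 6.46, 5.92, 6.31 and 6.37 with saline and 7.38, 7.47, 7.33 and 6.84 with SPC3833, so that array 4 lay 0.55 below the mean of the other treated arrays. Rank 15 read 5.92, 4.94, 5.01 and 5.23 with saline and 6.25, 6.75, 6.27 and 6.09 with SPC3833. At the other end, rank 49 read 6.54, 5.92, 6.37 and 6.32 with saline and 6.82, 6.87, 6.63 and 8.21 with SPC3833. In rank 49 array 4 was 1.44 above the mean of the other 3 treated arrays, whose values were close to saline.

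Ranks 33 and 53 were higher by nearly the same amount in every treated mouse. Rank 33 read 5.43, 5.56, 5.69 and 5.72 with saline and 6.54, 6.53, 6.46 and 6.58 with SPC3833. Its treated SD of 0.05 was the smallest of the 61. Rank 53 had 5.42, 5.45, 5.75 and 5.85 in saline and 6.51, 6.39, 6.38 and 6.50 after SPC3833.

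Without SPC3833 array 4 the median difference of the 61 genes was 0.84, the lowest was 0.49, and 38 of the 61 still reached 0.8. With saline array 1 left out instead, the median was 0.88, the lowest was 0.60, and 43 of the 61 still reached 0.8. Groups that do not overlap cannot begin to overlap when an array is left out, so only the size was free to change. The share of a change that each treated mouse held differed less among the falls, a contrast that was not tested. As a share of the mean change of each gene, the median on treated arrays 1 to 4 was 94.9%, 93.5%, 74.1% and 131% for the 61 rises. For the 101 falls of at least 0.8 it was 101%, 87.8%, 99.6% and 107%. For the 283 rises of 0.5 to under 0.8 without overlap it was 90.5%, 100.2%, 81.1% and 129%. These sets come from the same 8 arrays.

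The serum amyloid A genes were highest on the same treated mouse. Saa2 read 6.37, 6.92, 6.63 and 7.38 with saline and 8.18, 8.58, 7.89 and 10.55 with SPC3833, and Saa3 read 5.74, 5.79, 5.94 and 5.80, then 6.59, 6.67, 6.65 and 7.91. Saa1 read 4.40, 4.63, 4.94 and 6.51, then 6.94, 6.89, 6.17 and 9.29, with groups that overlapped. Whether the high values of the serum amyloid A genes and of the 61 genes on array 4 share a source was not tested.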

How the data were processed

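Liver RNA of 8 mice was measured on 1 array each. The authors deposited log2 values for 22361 probe sets (0.88 to 14.18, 0 missing); the scale was read from this range. The submitters' processing notes name affy, without a version. How the arrays were background-corrected and normalized, and on which genome build, is not given in the sources used here. An ID stands for 1 Ensembl mouse gene. The RefSeq table of GRCm38.p6 has 49997 entries, 0 with an Ensembl ID, so planned pathway and marker lists, promoter motifs and sequences were not analysed.

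Groups came from the sample titles. The rule was applied to the values as deposited. All genes were fitted with limma 3.58.1 in R 4.3.3 (lmFit, eBayes, two-sided, no covariate, no filter, Benjamini-Hochberg), tested on simulated data. Other steps used Python 3.11.15, numpy 2.4.6, pandas 2.3.3 and matplotlib 3.10.9. Genes were to be named from the largest difference down. Labels call the mice biological replicates; arrays of a group shared at most 0.134% identical values. With 4 arrays per group, precision is limited. The genes, lists and comparisons were chosen with earlier results of these data known. Other scalings, filters, variance models, thresholds, a replicate block and leaving out each array were tried.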

Additional observations from a re-analysis of the deposited data

Results flagged for a closer look

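In 126 sets of 4 values (each of the 61 genes in each group, and the mean over all genes and the median of the 61 genes in each group), 7 held an array far from the other 3 by Dixon's criterion for 4 values. For independent sets chance gives about 1 in 20, which is 6.3 of 126. These sets share 8 arrays and come from genes chosen by the same values. The counts of 7 and 6.3 can therefore not be weighed against each other. SPC3833 array 4 was the high one in 3 of them. It stood at 8.23 in rank 34, against 7.62 to 7.73 on the other treated arrays, at 6.91 in rank 41, against 6.17 to 6.27, and at 8.21 in rank 49, against 6.63 to 6.87. SPC3833 array 3 was low in rank 27, at 8.54 against 8.86 to 8.91. SPC3833 array 2 was low in rank 45, at 6.91 against 7.47 to 7.57. Saline array 1 was low in rank 18, at 5.17 against 5.85 to 5.97, and in rank 60, at 9.58 against 9.99 to 10.04.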

How the results depend on the processing

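The rule gave 61 genes as deposited, 51 after quantile normalization (50 of the 61), 46 after centring on the median (all among the 61) and 51 after centring on the 75th percentile (50 of the 61). It gave 102 at a minimum of 0.7, 22 at 1.0 and 79 without the condition on overlap. Leaving out 1 array gave 48 to 98 genes, the most without SPC3833 array 3 and the fewest without SPC3833 array 4. Of the 98 genes, 60 were among the 61, and of the 48, 38 were. Without saline array 1 the rule gave 53 genes, of which 43 were among the 61. The median difference of the 61 genes stayed between 0.84 and 1.00 under these scalings and omissions, and array 4 was the highest treated array for 45 to 49 of them under the scalings. Over all genes limma called 911 changed, 521 of them higher. The counts were 1552 and 932 for genes above the median level, 296 and 126 at adjusted p under 0.01, and 1582 and 956 at adjusted p under 0.1. As deposited 57.2% of the changed genes were higher, against 42.6% of 1066 after quantile normalization, 36.2% of 763 (276 genes) after centring on the median and 45.3% of 970 after centring on the 75th percentile. Leaving out 1 array gave 467 to 967 changed and 218 to 458 higher. The share that was higher was 43.2% without SPC3833 array 2, 46.9% without saline array 1 and 46.7% without saline array 2. It was 53.5% to 60.1% without any other single array. The cause of these shifts was not tested. The scalings used all genes and all 8 arrays. Fewer genes or arrays entered only the fits by level and those that left out an array. Deviations of same-numbered arrays correlated over 0.1 in 2 of 4 pairs, and 5 of 8 arrays correlated best with their own number. Whether the numbers pair the mice was not tested. They stand only in the sample titles, so the main fit did not pair the mice by them. With the replicate block 856 changed and 507 were higher. At least 0.8 higher on average, and higher in each same-numbered pair, were 70 genes. Groups that do not overlap rise in every pair, so the rule itself placed all 61 genes among these 70. Planned tests of pathway lists and promoter motifs were not run, since no ID could be named.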

Other observations

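The 3 genes with the largest differences among those kept out by overlapping groups resembled rank 1, ENSMUSG00000091028, in how they varied between mice. They read 8.67, 6.62, 9.02 and 7.80 on saline arrays 1 to 4 for the first, 7.73, 5.39, 7.95 and 6.33 for the second, and 6.94, 4.66, 7.15 and 6.30 for the third. In all 3, as in rank 1, saline arrays 1 and 3 were high, saline array 2 was the lowest array of all 8, and the highest treated values were on arrays 1 and 4. Their differences were 1.98, 1.87 and 1.86, close to the 1.80 of rank 1, and rank 1 alone had groups that did not touch, by 0.07. This likeness was noticed after the values were seen and was not tested.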
